A study of Danio rerio with 6 samples.

Results

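The NR4A nuclear receptors, the EGR zinc finger factors and the IER2 proteins were described in sorted zebrafish heart cells of the ventricular apex. The 9 genes are nr4a1, nr4a2a, nr4a2b, nr4a3, egr1, egr2a, egr3, ier2a and ier2b, out of 25089 genes in the table. They were chosen by name, with nr4a2b known to have one of the deepest falls between the groups. Their differences between groups are therefore given as a description, with no test.

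Of the 9 genes, 7 were found by their symbol. The other 2 were found by gene identifier, ier2a under the older symbol ier2 (ENSDARG00000099195) and ier2b under the clone name CR855274.1 (ENSDARG00000086881). The symbol egr2a stands on 2 rows. The row used here, ENSDARG00000044098, was taken for its higher mean level and carries that name in the reference table too. The other, ENSDARG00000098502, measured between 0.160 and 0.633 scaled FPKM.

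RNA was sequenced from 3 libraries of uninjured hearts and 3 libraries of regenerating hearts, the latter 5 days after resection of the ventricular apex. All 6 libraries came from fish of the Gata4:GFP strain, whose name marks a green fluorescent reporter tied to the heart transcription factor gene gata4. Every apex was dissociated with enzymes and sorted by fluorescence straight into lysis buffer, and injury tissue was removed before dissociation. The labels call all libraries cardiomyocytes and give neither the age of the fish, nor the sort gate, nor how many hearts made up a library, so the spread between libraries may be partly technical.

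Levels are scaled FPKM, that is, fragments scaled to transcript length and library total, after division by a factor per library. That factor sets the median ratio over 8924 broadly detected genes to a common value. Summed FPKM per library ran from 422675 to 535337, counts per library are not given, and precision rests on the spread between libraries. Mitochondrially encoded transcripts took 21.8% to 41.9% of FPKM in uninjured and 10.3% to 18.8% in regenerating libraries. Without scaling the median tested gene was higher in regenerating cells by 0.51 on the log2 scale, and with scaling by 0.05.

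NR4A proteins are orphan nuclear receptors that bind DNA as monomers, as homodimers or with a retinoid X receptor. Their activity is set mainly by how much of the protein is made. EGR proteins are zinc finger transcription factors that bind GC-rich promoter sites and are held back by NAB co-repressors. Both families, with the small nuclear IER2 proteins, are immediate early genes: their transcripts appear within minutes of growth factor, calcium, stretch or stress signals, through factors such as SRF, CREB and MEF2, and decay quickly. Enzymatic dissociation of tissue is known to induce many genes of this kind.

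The 3 detected NR4A genes were lower in every regenerating library than in any uninjured one, by 13.9-fold for nr4a2b, 3.3-fold for nr4a3 and 2.33-fold for nr4a1. Of the EGR genes, egr1 was lower by 1.70-fold, while egr2a and egr3 overlapped between groups. Both IER2 genes overlapped between groups and had mean levels close to each other in uninjured and regenerating cells. These are scaled values. Without scaling the groups of nr4a3 and of egr1 overlapped. The unscaled log2 differences were -0.19 for egr1, 0.75 for ier2a and 0.39 for ier2b.

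**Figure D1:**
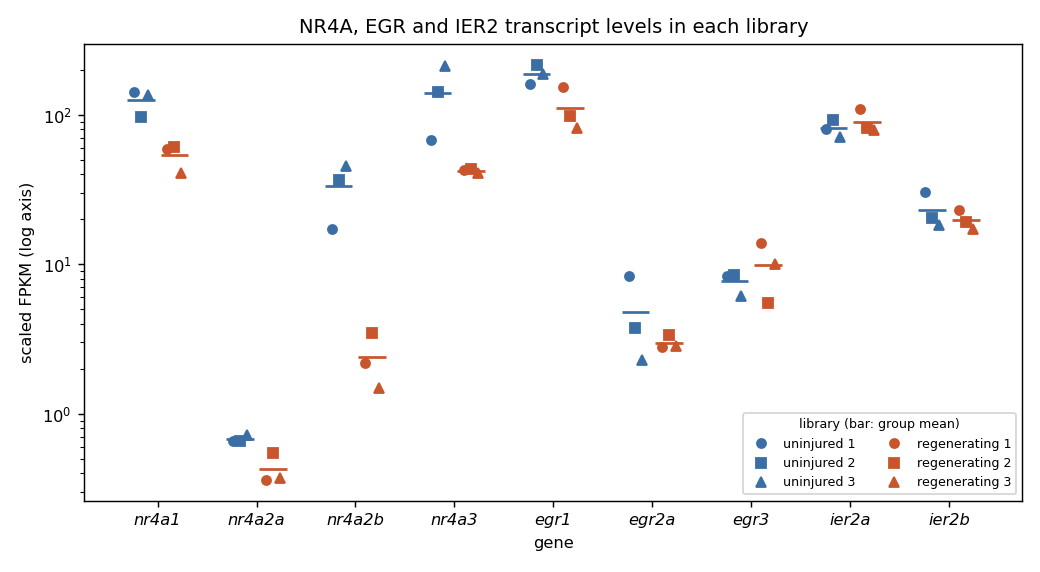
Scaled FPKM (log axis) of the 9 genes in each of the 3 uninjured (blue) and 3 regenerating (orange) libraries, with a bar at each group mean and a symbol shape for the library number. The groups are far apart for nr4a2b (17.3 to 45.6 against 1.49 to 3.48), and interleave for egr3, ier2a and ier2b.

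The gene nr4a2b (ENSDARG00000044532) encodes a zebrafish counterpart of NURR1, which in mammals is known for the making of dopamine neurons. It measured 17.3, 36.6 and 45.6 scaled FPKM in uninjured replicates 1, 2 and 3, and 2.2, 3.48 and 1.49 in regenerating replicates 1, 2 and 3. The lowest uninjured library stood well above the highest regenerating one. The group means were 33.2 ± 14.5 and 2.39 ± 1.01 scaled FPKM (SD, n = 3), a log2 difference of -3.27 (SE 0.38). The authors' deposited table gives -3.76 for this gene.

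The regenerating values of nr4a2b were low but measurable. Genes with a mean normalised count of 0 still carry a small value in the table, a floor that falls with transcript length. Compared with that floor at its own length, nr4a2b was 254 to 573 times higher in uninjured and 35.4 to 57.6 times higher in regenerating libraries. Its log2 difference lay between -3.67 and -2.99 when any one library was left out, and was -2.77 without scaling.

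Its paralog nr4a2a (ENSDARG00000017007) was not measurably expressed. It measured 0.654, 0.660 and 0.716 scaled FPKM in uninjured replicates 1, 2 and 3, and 0.361, 0.545 and 0.374 in regenerating replicates 1, 2 and 3. Those values tracked the floor of each library, at 4.97 to 5.36 times the floor in all 6, and the authors' mean normalised count is 0.195. The gap between its groups appeared only after scaling, and nr4a2a was the 1 gene of the 9 that did not pass the filter of more than 1 FPKM in at least 3 libraries. Paralogs as alike as nr4a2a and nr4a2b can share reads, which cannot be checked in this table.

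The gene nr4a3 (ENSDARG00000055854), a counterpart of mammalian NOR1, was the most variable of the receptors in uninjured hearts. It measured 67.6, 141 and 210 scaled FPKM in uninjured replicates 1, 2 and 3, and 42.5, 43.5 and 40.9 in regenerating replicates 1, 2 and 3. The regenerating libraries were nearly alike (42.3 ± 1.32, SD, n = 3) and the uninjured ones spread widely (140 ± 71.3, SD, n = 3). The log2 difference was -1.55 (SE 0.37). Without scaling, uninjured replicate 1 measured 50.6 FPKM and lay among the regenerating libraries, which ran from 48.7 to 56.6 FPKM, and the log2 difference was -0.95.

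The gene nr4a1 (ENSDARG00000000796) is the counterpart of mammalian NUR77, which is induced in T cells by receptor signalling and in muscle by adrenergic signals. It measured 142, 96.8 and 135 scaled FPKM in uninjured replicates 1, 2 and 3, and 58.7, 61.1 and 40.6 in regenerating replicates 1, 2 and 3. Its groups did not overlap with scaling or without it. The means were 124 ± 24.2 and 53.5 ± 11.2 scaled FPKM (SD, n = 3), and the log2 difference was -1.21 (SE 0.26) with scaling and -0.60 (SE 0.30) without.

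Summed over the 4 NR4A genes, the level was 227, 275 and 391 scaled FPKM in uninjured replicates 1, 2 and 3, and 104, 109 and 83.4 in regenerating replicates 1, 2 and 3. The make-up of that sum differed too. The gene nr4a2b supplied 7.61%, 13.3% and 11.6% of it in the uninjured libraries and 2.12%, 3.21% and 1.79% in the regenerating ones. The share of nr4a3 was 29.7% to 53.7% in uninjured and 40.1% to 49.1% in regenerating libraries. The shares of nr4a2b did not overlap between groups and those of nr4a3 did.

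**Figure D2:**
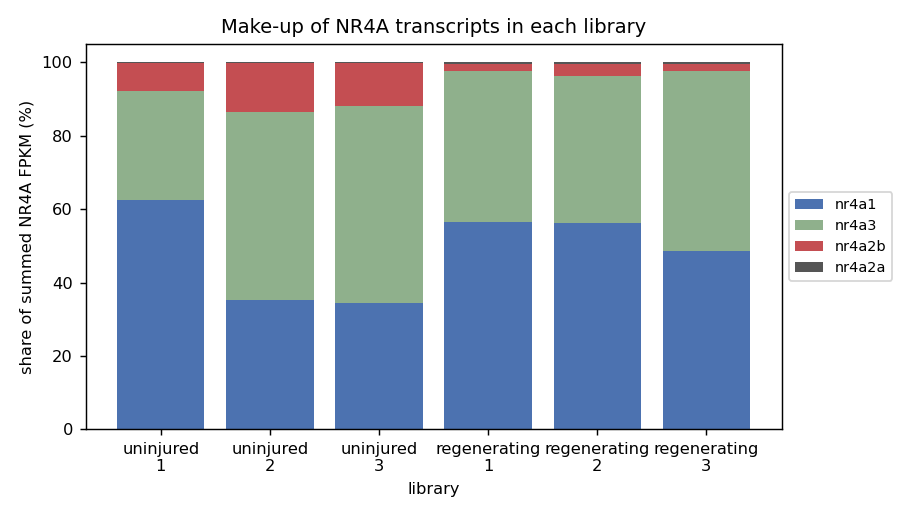
Share (%) of summed NR4A FPKM held by each of the 4 genes in each library. The nr4a2b band (red) is 7.61% to 13.3% in uninjured and 1.79% to 3.21% in regenerating libraries, nr4a2a is under 1% in all, and uninjured replicate 1 differs from its group by an nr4a1 share of 62.4%.

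Ratios within a library do not depend on the scaling. The ratio of nr4a2b to nr4a3 was 0.256, 0.260 and 0.217 in uninjured replicates 1, 2 and 3, although the levels of both genes varied widely among those libraries. In regenerating replicates 1, 2 and 3 the ratio was 0.0517, 0.0800 and 0.0364. Uninjured replicate 1 was thus low in nr4a2b and in nr4a3 alike, but had the highest nr4a1 level of the 6 libraries. Its nr4a3 to nr4a1 ratio was 0.477, below the 1.46 and 1.56 of the other uninjured libraries and also below the regenerating range of 0.712 to 1.01.

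Among the EGR genes, egr1 (ENSDARG00000037421), which is known to couple growth factor and injury signals to gene expression, was the most abundant of the 9 genes in both groups. It measured 161, 216 and 188 scaled FPKM in uninjured replicates 1, 2 and 3, and 153, 97.5 and 81.1 in regenerating replicates 1, 2 and 3. Regenerating replicate 1 was close to the lowest uninjured library and the other regenerating libraries were clearly below it. The means were 188 ± 27.4 and 111 ± 37.8 scaled FPKM (SD, n = 3), with a log2 difference of -0.80 (SE 0.28). Without scaling the difference was -0.19 (SE 0.37) and the groups overlapped.

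The gene egr3 (ENSDARG00000089156), whose mammalian counterpart acts in muscle spindles and in T cell tolerance, measured 8.37, 8.47 and 6.17 scaled FPKM in uninjured replicates 1, 2 and 3. In regenerating replicates 1, 2 and 3 it measured 13.9, 5.48 and 10.03. Regenerating replicate 2 was the lowest of all 6 libraries and regenerating replicate 1 the highest. The log2 difference was 0.25 (SE 0.33), and 0.80 (SE 0.40) without scaling. The ratio of egr3 to egr1 was 0.0328 to 0.0520 in uninjured and 0.0563 to 0.124 in regenerating libraries, with no overlap.

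The gene egr2a (ENSDARG00000044098), related to the hindbrain and Schwann cell factor KROX20, was low. It measured 8.33, 3.76 and 2.27 scaled FPKM in uninjured replicates 1, 2 and 3, and 2.79, 3.36 and 2.82 in regenerating replicates 1, 2 and 3. All regenerating values lay within the uninjured range, and the log2 difference of -0.40 (SE 0.38) was 0.07 without scaling and 0.01 without uninjured replicate 1. Of the EGR genes outside the 9, egr2b measured 1.26 ± 0.177 and 0.912 ± 0.421 scaled FPKM, and egr4 measured 5.05 ± 3.39 and 3.90 ± 1.33, in uninjured and regenerating cells (SD, n = 3). Neither passed the threshold (limma adjusted p = 0.538 and 0.842).

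The IER2 genes encode small nuclear proteins that are induced with FOS and EGR1 by serum. The gene ier2a measured 80.1, 92.5 and 70.9 scaled FPKM in uninjured replicates 1, 2 and 3, and 110, 81.3 and 78.8 in regenerating replicates 1, 2 and 3. Its paralog ier2b measured 30.5, 20.5 and 18.3, then 22.9, 19.0 and 17.2, in the same order. Both genes interleaved between groups, and their log2 differences were 0.14 (SE 0.24) and -0.19 (SE 0.27). Without scaling these became 0.75 (SE 0.34) and 0.39 (SE 0.32), so the direction for ier2b turned with the scaling.

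The wider IER family did not move as one. The gene ier5l went from 9.79 ± 3.67 up to 32.2 ± 4.41 scaled FPKM (SD, n = 3), a rise past the threshold (log2 difference 1.67, SE 0.29, limma adjusted p = 0.00834), and passed in all 13 alternative settings. Its relative ier5, an inducible regulator of the heat shock factor in mammals, measured 112 ± 17.1 and 190 ± 17.9 scaled FPKM (SD, n = 3), a log2 difference of 0.76 (SE 0.23, limma adjusted p = 0.0580). The symbol ier3 was on no row. Summed over the 4 IER genes found, the level was 223 to 229 scaled FPKM in uninjured and 302 to 377 in regenerating libraries, without overlap. As ier2a and ier2b are among these 4 and were described without a test, nothing is read from this sum or from a count over the 4. Without scaling both ier5 and ier5l were higher past the threshold. The shares of all genes tested were 7.5% higher and 3.95% lower, and 23.7% and 1.52% without scaling.

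Set against ier2a in the same library, a comparison that scaling leaves unchanged, NR4A genes and egr1 were lower in regenerating cells. The summed NR4A level was 2.84, 2.97 and 5.52 times that of ier2a in uninjured replicates 1, 2 and 3, and 0.947, 1.34 and 1.06 times in regenerating replicates 1, 2 and 3. The ratio of egr1 to ier2a was 2.01, 2.33 and 2.66 in the uninjured and 1.40, 1.2 and 1.03 in the regenerating libraries. Neither ratio overlapped between groups. Set against egr1 instead, the ratio of nr4a1 overlapped, at 0.449 to 0.881 in uninjured and 0.383 to 0.627 in regenerating libraries. That of nr4a3 to egr1 overlapped too, at 0.420 to 1.12 and 0.278 to 0.505. The ratios to egr1 of nr4a2b (0.107 to 0.242 and 0.0144 to 0.0357) and of summed NR4A (1.27 to 2.08 and 0.678 to 1.11) did not overlap. As the genes were picked with their values known, these ratios are a description only. They give unequal differences between groups, and not which of the genes stayed level.

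**Figure D3:**
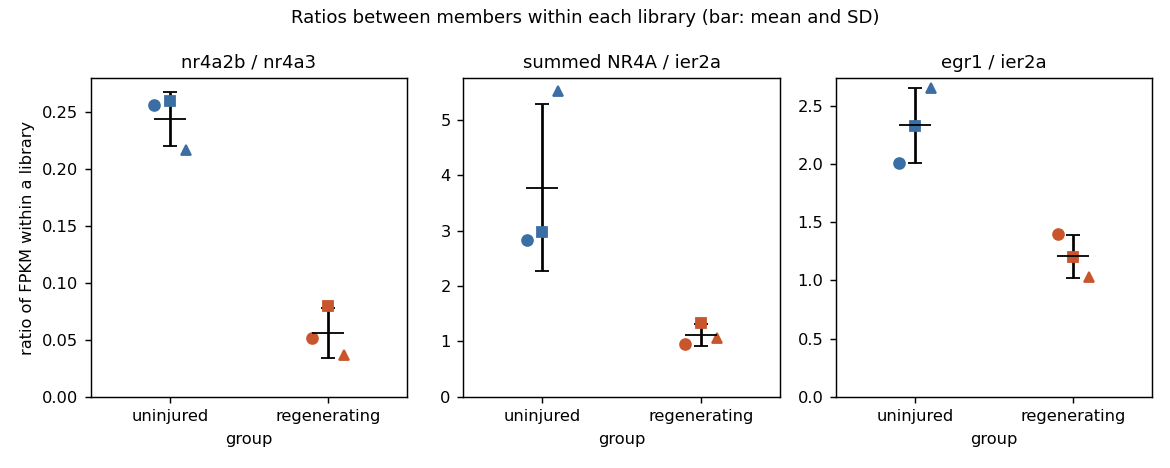
Ratio of FPKM within each library for nr4a2b to nr4a3, summed NR4A to ier2a, and egr1 to ier2a, with points for the 3 uninjured (blue) and 3 regenerating (orange) libraries and bars for mean and SD. All 3 ratios are lower in every regenerating library than in any uninjured one.

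In order of level in uninjured cells, egr1 (188) came first, then nr4a3 (140), nr4a1 (124), ier2a (81.1), nr4a2b (33.2), ier2b (23.1), egr3 (7.67), egr2a (4.79) and nr4a2a (0.677 scaled FPKM). Neighbours whose library ranges overlapped were egr1 and nr4a3, nr4a3 and nr4a1, nr4a2b and ier2b, and egr3 and egr2a. In regenerating cells the order was egr1 (111), ier2a (89.9), nr4a1 (53.5), nr4a3 (42.3), ier2b (19.7), egr3 (9.82), egr2a (2.99), nr4a2b (2.39) and nr4a2a (0.427 scaled FPKM). There the ranges of egr1 and ier2a overlapped, as did those of nr4a1 and nr4a3 and of egr2a and nr4a2b. Thus nr4a2b went from the fifth to the eighth place, and ier2a from the fourth to the second. As a percentile of mean level among the 13319 genes tested, nr4a2b went from 93.2 to 32.4, while egr1 went from 98.5 to 97.4.

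Of the 9 genes, 5 were lower in regenerating cells with no overlap between groups, and one of these, nr4a2a, did not pass the filter on low values. None was higher without overlap. Among all genes tested, 13.7% were lower and 19.1% higher without overlap. Without scaling, 2 of the 9, nr4a1 and nr4a2b, were lower without overlap, against 3.13% of all genes tested, and none was higher, against 38.1%. As the genes were picked with these values known, nothing is read from these counts.

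**Figure D4:**
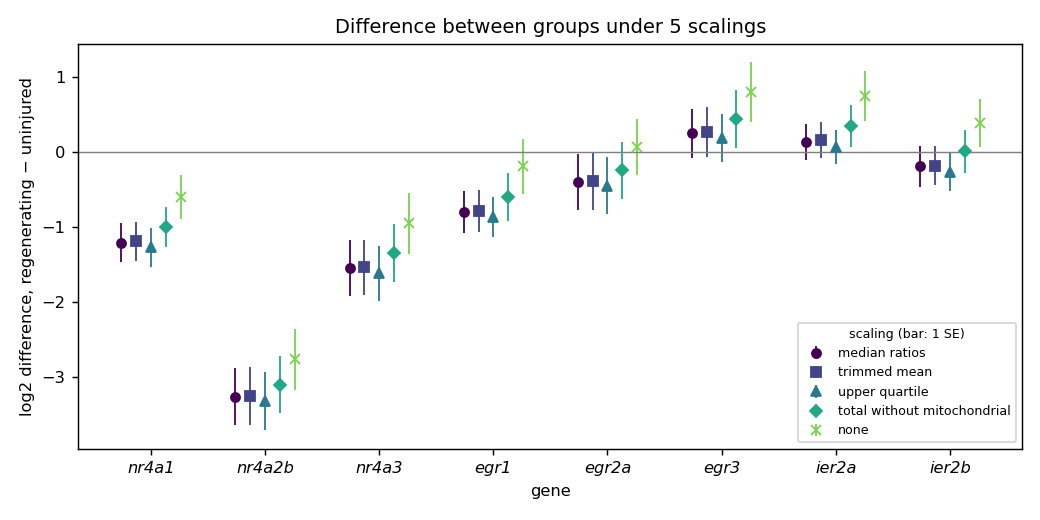
Log2 difference (regenerating minus uninjured, with 1 SE) of the 8 genes that passed the filter under 5 scalings. The 3 NR4A genes and egr1 are below 0 under all 5, egr3 and ier2a above 0 under all 5, and egr2a and ier2b change side, to 0.07 and 0.39 without scaling.

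Other immediate early genes were compared across the same groups. Of 56 tested, 7 rose and 3 fell, which left 46 that missed the threshold, beside 7.5% of all 13319 genes higher and 3.95% lower (limma, adjusted p below 0.05). Without scaling 12 were higher and 2 lower, beside 23.7% and 1.52% of all genes. The list's median log2 difference was -0.05, against 0.05 over all genes tested. The summed level of its 62 genes found ran from 8245 to 10564 scaled FPKM in uninjured and from 7588 to 9201 in regenerating libraries, with overlap. The higher members numbered 2 without regenerating replicate 1 or 3, 3 without uninjured replicate 2 and 4 without uninjured replicate 3. Without uninjured replicate 1, 6 members were lower.

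The largest fall on that list was in csrnp1a, a cysteine- and serine-rich nuclear protein gene. It measured 15.0, 27.3 and 21.9 scaled FPKM in uninjured replicates 1, 2 and 3, and 1.92, 4.16 and 3.04 in regenerating replicates 1, 2 and 3 (log2 difference -2.47, SE 0.32, limma adjusted p = 0.00197). Its paralog csrnp1b, named after its value was seen, measured 736 and 622 scaled FPKM on average (log2 difference -0.25, SE 0.23, limma adjusted p = 0.530), so the scarcer paralog of this pair fell and the abundant one missed the threshold. The gene rgs2, which turns off G protein signals, fell from 45.7 ± 17.1 to 13.6 ± 3.19 scaled FPKM (n = 3, SD; log2 difference -1.64, SE 0.30, limma adjusted p = 0.0104). The glucocorticoid-responsive factor gene klf9 fell by 1.38 (SE 0.36, limma adjusted p = 0.0371), a call that was lost without scaling (adjusted p = 0.194), with the total without mitochondrial transcripts (0.0919), with no filter on low values (0.112) and without uninjured replicate 2 or 3 or regenerating replicate 1 or 2 (adjusted p from 0.0517 to 0.130).

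The haem oxygenase gene hmox1a rose most, from 4.36 ± 1.73 to 34.8 ± 13.1 scaled FPKM (n = 3, SD; log2 difference 2.72, SE 0.36, limma adjusted p = 0.00215). The Kruppel-like factor gene klf6a rose from 57.6 ± 8.32 to 143 ± 20.9, and the NF-kappaB inhibitor gene nfkbiaa from 312 ± 29.4 to 753 ± 225 scaled FPKM (SD, n = 3; limma adjusted p = 0.00958 and 0.0189). Without regenerating replicate 1 their limma adjusted p-values were 0.0564 and 0.0760, and that of nfkbiaa was 0.0686 without regenerating replicate 3 and 0.0629 with no filter on low values. The most abundant member, fosab, measured 1470 ± 250 and 1130 ± 186 scaled FPKM (limma adjusted p = 0.379).

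**Figure D5:**
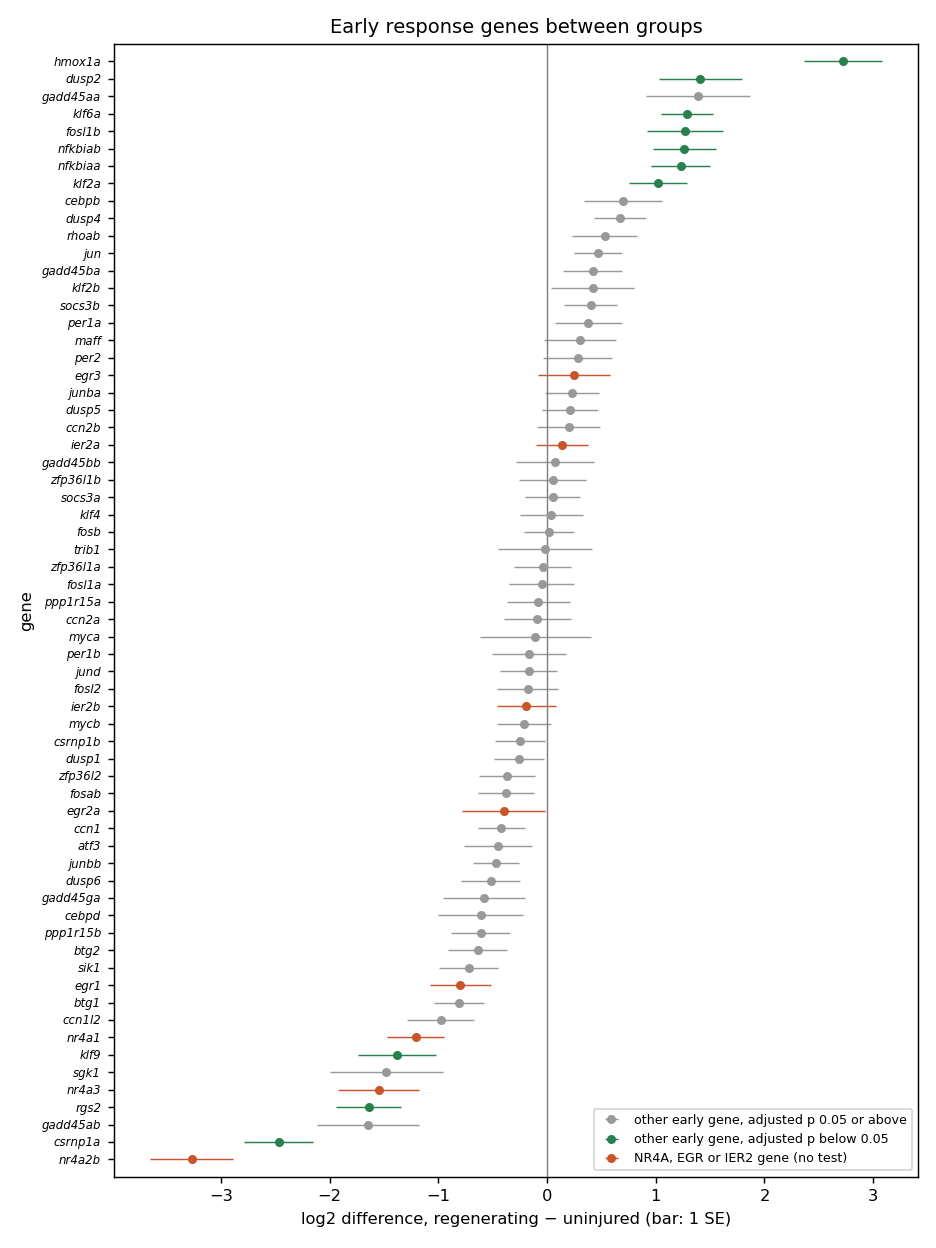
Log2 difference (regenerating minus uninjured, with 1 SE) of the 56 other immediate early genes tested and of the 8 measurable NR4A, EGR and IER2 genes (orange, not tested). Green points pass an adjusted p of 0.05; nr4a2b lies at the lower end beside csrnp1a, and ier2a, ier2b and egr3 lie in the middle.

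Factors that act with NR4A and EGR proteins were compared in the same way. Of 19 partners and co-regulators tested, which include retinoid X receptors, NAB co-repressors and the NCOR and NCOA proteins, 1 rose and none fell, so that 18 missed the threshold (limma; without scaling 4 were higher and 0 lower; 2 higher and 2 lower at an unadjusted p below 0.05). Over all genes tested 7.5% were higher and 3.95% lower, and 23.7% and 1.52% without scaling. The riser was rxrab, a retinoid X receptor, at 0.0935, 0.210 and 0.110 scaled FPKM in uninjured replicates 1, 2 and 3 and at 1.49, 2.79 and 1.57 in regenerating replicates 1, 2 and 3. Its uninjured values were below the filter of 1 FPKM and at 0.833, 1.73 and 0.842 times the floor. It thus passed the filter through the regenerating libraries alone, so its fold change is uncertain and nothing is read from this 1 call. The most abundant, the deacetylase gene hdac1, measured 33.9 ± 4.11 and 44.3 ± 3.71 scaled FPKM (SD, n = 3; limma adjusted p = 0.314). The co-repressor nab2, itself an EGR target in mammals, measured 2.97 ± 1.51 and 5.51 ± 3.32 (SD, n = 3; limma adjusted p = 0.345), and was named after its value was seen.

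Of 28 genes of the signals and factors upstream, 1 rose and 1 fell, and without scaling 3 were higher and 0 lower, neither count above the share of all genes tested that was called that way (7.5% higher and 3.95% lower, and 23.7% and 1.52% without scaling). The ERK pathway kinase gene map2k1 rose from 2.72 ± 1.99 to 14.1 ± 0.502 scaled FPKM (n = 3, SD; log2 difference 2.2, SE 0.42, limma adjusted p = 0.0113), but missed the threshold when regenerating replicate 1 (adjusted p = 0.0531) or 2 (adjusted p = 0.0511) was left out and with no filter on low values (adjusted p = 0.0559). The muscle transcription factor gene mef2aa fell from 63.6 ± 7.84 to 32.0 ± 10.8 (SD, n = 3; log2 difference -1.01, SE 0.28, limma adjusted p = 0.0443). That call was lost without each library but regenerating replicate 2, with adjusted p-values from 0.0756 to 0.155, without scaling (adjusted p = 0.360), with the total without mitochondrial transcripts (0.0791) and with no filter on low values (0.105). The most abundant was crema, whose ICER product in mammals is an inducible repressor of cyclic AMP targets, at 386 ± 88.5 and 239 ± 36.3 scaled FPKM (SD, n = 3; limma adjusted p = 0.120).

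Genes known in mammals as targets were listed for both families. For comparison, 7.5% of all genes tested were higher and 3.95% lower, and 23.7% and 1.52% without scaling (limma, adjusted p below 0.05). Of 24 EGR1 targets tested, 5 rose and none fell, so that 19 missed the threshold (without scaling 8 were higher and 0 lower; 6 higher and 2 lower at an unadjusted p below 0.05, limma). Among the risers were the fibronectin gene fn1a (log2 difference 3.63, SE 0.21) and the vascular growth factor gene vegfaa (log2 difference 1.87, SE 0.27). Another riser, fn1b, is also on the fibroblast marker list described below, so the counts for these lists share a gene. The most abundant, the tissue factor gene f3b, measured 402 and 433 scaled FPKM on average (limma adjusted p = 0.810). Of 12 NR4A targets tested, 3 fell and none rose, so that 9 missed the threshold (without scaling 2 were lower and 2 higher; 5 lower and 1 higher at an unadjusted p below 0.05). The fallers were the phosphatidate phosphatase gene lpin1 (11.8 ± 4.08 to 2.06 ± 0.779 scaled FPKM), the mitochondrial carrier gene ucp3 (5.40 ± 0.876 to 1.38 ± 0.319, SD, n = 3) and the pituitary hormone precursor gene pomca (log2 difference -1.12, SE 0.31). The most abundant, the cyclin gene ccnd2a, measured 30.5 and 21.2 on average and missed the threshold. The call for pomca was lost without scaling (limma adjusted p = 0.0945), with the total without mitochondrial transcripts (0.0567), with no filter on low values (0.130) and without each library but uninjured replicate 3, and that for ucp3 without regenerating replicate 1 (adjusted p = 0.0564).

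The 5 genes with the profile most like nr4a2b were found by the root mean square distance between centred log2 values over the 6 libraries, among 3048 genes averaging at least 10 scaled FPKM. They were thsd1 (0.254), the GTP cyclohydrolase gene gch2 (0.488), the inducible nitric oxide synthase gene nos2a (0.526), the desmosomal plakophilin gene pkp3a (0.528) and csrnp1a (0.529, in log2 units). The nearest, thsd1, a thrombospondin-domain gene, measured 102, 196 and 223 scaled FPKM in uninjured replicates 1, 2 and 3 and 25.8, 24.4 and 12.7 in regenerating replicates 1, 2 and 3. Like nr4a2b, it was lowest in replicate 1 among the uninjured libraries and lowest in replicate 3 among the regenerating ones. The search picks genes for such likeness, so the shared order and the falls of these 5 genes are no separate result. The nearest to egr1 were si:ch211-67n3.9 (0.074), nsa2 (0.126), the caldesmon gene cald1b (0.156), b2ml (0.171) and the clock repressor gene nr1d2a (0.174). The nearest to ier2b were the calcium pump gene atp2a2b (0.046), rad23b (0.117), the aldolase gene aldocb (0.117), pip4k2aa (0.135) and amotl2a (0.141).

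Markers of several cell types moved with the groups, to unequal extents. Cardiomyocyte markers were abundant in all libraries, their 15 genes summing to 8808 to 17713 scaled FPKM in uninjured and 5884 to 11067 in regenerating libraries. Of 14 tested, 4 fell and none rose, namely vmhcl, ttn.2, mybpc3 and ryr2b, and without scaling 3 were lower. The call for mybpc3 was lost without scaling (limma adjusted p = 0.0834) and with no filter on low values (0.0609). It was also lost without regenerating replicate 1 (0.0663) or 2 (0.0594). Over all genes tested 3.95% were lower and 7.5% higher, and 1.52% and 23.7% without scaling. Of 16 epidermal and keratinocyte markers tested, 11 fell and 1 rose (without scaling 9 lower and 1 higher), and the sum of all 18 overlapped, at 1041 to 1691 and 1067 to 1608 scaled FPKM. Of 12 thrombocyte markers 3 fell, with sums of 499 to 1007 and 181 to 387, and without scaling 2 were lower and 1 higher. Those 3 calls (gp1bb, mpl and apln) were lost without regenerating replicate 1 (limma adjusted p from 0.0521 to 0.131). Of 13 smooth muscle and mural markers 6 fell and 3 rose, with sums of 683 to 820 and 404 to 458, and without scaling 4 were lower and 3 higher. Epicardial markers rose in 10 of 12 (867 to 1371 and 1983 to 2976) and fibroblast markers in 11 of 14 (592 to 984 and 2308 to 2685 scaled FPKM), and without scaling 10 and 12 were higher. Rises also passed for 4 of 22 endothelial, 4 of 15 macrophage and 4 of 11 erythrocyte markers (11, 8 and 8 without scaling), and none of these fell. The 4 endothelial calls (kdrl, cdh5, flt1 and egfl7) were lost without regenerating replicate 1 (limma adjusted p from 0.0665 to 0.169). Lost there too were the calls of c1qb (0.115), hbaa2 (0.118) and alas2 (0.0705). Several calls on other marker lists were also lost under some settings. On the epidermal list the fallers agr1 and ppl and the riser icn passed least often, each in 5 of 13 alternative settings. On the mural list myh11a, pdgfrb and tagln passed least often, in 5, 6 and 7 of the 13. These genes were named after their values were seen. The sums of the endothelial, macrophage and erythrocyte lists overlapped between groups. They were 167 to 231 and 199 to 329 (endothelial), 96.0 to 140 and 77.1 to 210 (macrophage), and 16.6 to 460 and 382 to 1075 scaled FPKM (erythrocyte). Of 6 neutrophil markers 1 rose, of 4 neural and Schwann cell markers 1 rose, and the 1 lymphocyte marker tested missed the threshold. No marker was exactly 0, but a value above 0 can still lie at the floor. Of 21 heat shock genes, 2 rose, namely hspa5 and serpinh1b, and none fell. Dissociation can induce some genes of this class, and its part in the rises of hspa5 and serpinh1b was not tested. Without scaling 7 of the 21 genes were higher and 0 lower. Their sum was 1787 to 2145 in uninjured and 1933 to 3008 scaled FPKM in regenerating libraries, with overlap. In bulk samples, fewer cells of a type and less RNA per cell cannot be told apart, and the part that cell make-up played in the NR4A difference was not tested.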

How the data were processed

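Per the submitters' processing notes, the tools were STAR (2.5.3a), RSEM (1.3.0), R (3.3.3) and DESeq2, on the GRCz10 build; their settings are not given in the sources used here. The authors deposited log2 values of FPKM, with an offset of 0.1 read from the values, which was subtracted here. Their table also holds a log2 fold change from their own comparison, its p-value and adjusted value, and a mean normalised count per gene, a signal pooled over libraries by the authors. Of these only the fold change and mean count are quoted.

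Genes above 1 FPKM in at least 3 libraries (13319) were fitted in R 4.3.3 with limma 3.58.1 on log2(scaled FPKM + 1), with an intensity trend and group as the only term. Fold changes on that scale understate low genes. P-values were two-sided and Benjamini-Hochberg adjusted over all 13319 genes. The fit was tested on simulated data, drawn as independent normal log2 values around each gene's own mean with its own spread. The fit assumes values of that form, so the simulation cannot show how it does where real values depart from it. That simulation held no scaling step, so it does not bear on the choice of scaling. No count test was run. The 9 genes and all lists were chosen with earlier results of these data known. Named from each list were up to 3 genes with the smallest p in each direction and the most abundant. One gene that this rule names is not reported here. No sequences or coordinates are given, as the reference tables used here hold names of another build.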

Additional observations from a re-analysis of the deposited data

How the results depend on the processing

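Over 13 alternative settings, 98 of 104 values of the 8 measurable NR4A, EGR and IER2 genes moved by less than the spread between replicates, and none of the 3 NR4A genes changed sign. The other 6 all came from leaving out the scaling, with log2 differences of -0.60 for nr4a1, -0.95 for nr4a3, -0.19 for egr1, 0.80 for egr3, 0.75 for ier2a and 0.39 for ier2b. When any one library was left out, the differences ran from -1.38 to -1.02 for nr4a1, -3.67 to -2.99 for nr4a2b, -2.0 to -1.19 for nr4a3, -1.06 to -0.61 for egr1, -0.74 to 0.01 for egr2a, -0.02 to 0.58 for egr3, -0.01 to 0.24 for ier2a and -0.34 to 0.01 for ier2b.

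Over all genes, 999 were higher and 526 lower. Without scaling these became 3161 and 203, without a filter on low values 479 and 202, and 341 were lower when the total left out mitochondrial transcripts, a setting chosen after seeing the data. With one library left out, 367 to 1031 were higher and 145 to 569 lower. Among the other immediate early genes, 12 were higher without scaling and 2 without the filter, 5 were lower with upper-quartile scaling, and 2 to 6 were higher and 2 to 6 lower with one library left out. Among the upstream genes, 3 were higher without scaling, 2 with the total without mitochondrial transcripts and 0 without the filter, 0 were lower under each of these, and 0 to 2 were higher and 0 to 2 lower with one library left out. Among partners and co-regulators, 4 were higher without scaling, and 1 to 2 with one library left out. The causes were not tested.

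Replicate numbers gave no sign of pairing the libraries. Deviations of libraries with the same number had correlations across genes of -0.013, -0.005 and -0.062, and no library correlated best with its own number. Such correlations, from deviations centred within groups of 3, cannot settle whether libraries were paired. With the replicate number as a block, 917 genes were higher and 485 lower, and nr4a2b stayed at -3.27. Of the genes named in the text as passing, klf9, mef2aa and pomca missed the threshold with the block (limma adjusted p = 0.0521, 0.0550 and 0.0511).

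The values of nr4a2a, of the second egr2a row and of rxrab in uninjured libraries were within about 6 times the floor for their length, which limits what they can show.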

Other observations

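Genes next to the 9 in the RefSeq order of protein-coding genes (GRCz12tu assembly, used for gene order only) were looked up after the values of the 9 had been seen. Of 18 such neighbours, 15 were in the table and 11 were tested. With scaling none passed an adjusted p of 0.05 (limma, 2 at an unadjusted p below 0.05). Without scaling both neighbours of nr4a3, sec61b and stx17, were higher (limma adjusted p = 0.0384 and 0.0296). Over all genes tested 7.5% were higher and 3.95% lower, and 23.7% and 1.52% without scaling, so nothing is read from so small a count. The log2 differences of the tested neighbours ran from -0.62 to 0.67 with scaling. Beside nr4a2b, the mitochondrial glycerol-3-phosphate dehydrogenase gene gpd2 measured 4.77 and 4.03 scaled FPKM on average in uninjured and regenerating cells, and the kinase gene stk24b measured 13.3 and 9.47.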
